A study of Mus musculus with 2 samples.

Results

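The cells described here are fetal liver cells that carried messages of azurophil granule proteins and stayed under a limit of surface CD11b. The members were chosen by their UMIs of 4 genes and by 1 antibody, among the cells with 300 to 5000 detected genes and at most 9% mitochondrial unique molecular identifiers (UMIs, which count captured mRNA molecules). A member had at least 10 UMIs of Mpo, Elane, Prtn3 and Ctsg together and fewer than 100 counts of the CD11b antibody. The rule found 278 cells, or 3.78% of the 7355 kept cells, out of 7863 cells in the matrix. Because the 4 genes and the CD11b antibody chose the cells, their values below are a description and carry no test. The members were not without CD11b: its median was 33 counts in them (quartiles 19 to 55.75), against 6 in all other kept cells.

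The data are 1 CITE-seq experiment, in which mRNA and antibody tags are read from the same droplet. Wild-type livers of C57BL/6 embryos at e13.5 were pooled, the cells were tagged with a Ter119 antibody and depleted of Ter119+ red cells, Ter119+ cells were then returned in equal number to the Ter119- cells, and the mixture was stained with the other tagged antibodies of a panel of 10, so the shares of cell types are not those of the organ. The 1 cDNA library and its antibody library hold the same 7863 cell barcodes. With 1 library there are no replicates and no difference could be tested. Intervals in parentheses are at the 95% level and cover the error of counting alone.

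Granule-forming myeloid cells arise from cKit+ progenitors that pass through a granulocyte and monocyte progenitor stage before they commit to neutrophils, monocytes, eosinophils, basophils or mast cells. Azurophil granules are made first, at the promyelocyte stage, and hold myeloperoxidase (Mpo) and the serine proteases neutrophil elastase (Elane), proteinase 3 (Prtn3) and cathepsin G (Ctsg). Specific granules and surface CD11b, the integrin chain encoded by Itgam, come later. In the mouse fetal liver these lineages arise beside a far larger erythroid compartment.

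Besides all other kept cells (7077), 3 sets of kept cells served for comparison. Granule-gene cells with high CD11b met the same sum but had 100 or more CD11b counts (103 cells). The cKit-high progenitors had a sum under 10, at least 100 cKit counts, and low CD71, Ter119 and CD11b (1055 cells). Ter119-high cells (1677 cells, 100 or more Ter119 counts) are red cell precursors that should lack the granule genes, and their values are given as a background. Some of them were not clean: 67 had 100 or more CD11b counts, 5 met the granule-gene sum and 44 were called doublets. Levels in the 1527 Ter119-high cells left without doublet calls, the sum or 25 or more CD11b counts are therefore given beside the values for all of them, and how much of the background is free RNA was not tested. The median depth was 8174 UMIs per cell in the members, 8088 in the CD11b-high cells, 6811 in the cKit-high progenitors and 4351 in the Ter119-high cells. Levels are given as CPM, the UMIs of a gene summed over the cells of a group per 1000000 UMIs of that group, and they count the 3′ ends of messages.

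The surface readout rests on short DNA tags. The tags below are those of the antibody that set the members' limit and of cKit and CD44, whose counts are compared below.
CD11b: catgattggctc
cKit: aagcgcttggca
CD44: gtctagacttcg
The promoters of the 4 genes of the rule and of Ms4a3, a membrane protein of granulocyte and monocyte progenitors, are shown because the first 4 define the cells and Ms4a3 is the marker of their label that the rule left out. Each window is 300 bases of GRCm38.p6 (the mm10 build of the data), from 250 bases before to 50 bases after the start of the RefSeq gene, printed along the gene's strand. Capitals mark PU.1-type letters (GAGGAA), C/EBP-type letters (TTGCNNAA), MYB-type letters (TAACNG) and RUNX-type letters (TGTGGT), searched on both strands.
Mpo, chr11:87793534-87793833, plus strand: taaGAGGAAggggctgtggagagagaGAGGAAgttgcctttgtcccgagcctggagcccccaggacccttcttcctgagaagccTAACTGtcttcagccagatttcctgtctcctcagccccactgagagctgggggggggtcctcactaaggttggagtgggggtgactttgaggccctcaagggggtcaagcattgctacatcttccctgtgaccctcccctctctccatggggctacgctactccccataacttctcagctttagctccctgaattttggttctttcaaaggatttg
Elane, chr10:79886062-79886361, plus strand: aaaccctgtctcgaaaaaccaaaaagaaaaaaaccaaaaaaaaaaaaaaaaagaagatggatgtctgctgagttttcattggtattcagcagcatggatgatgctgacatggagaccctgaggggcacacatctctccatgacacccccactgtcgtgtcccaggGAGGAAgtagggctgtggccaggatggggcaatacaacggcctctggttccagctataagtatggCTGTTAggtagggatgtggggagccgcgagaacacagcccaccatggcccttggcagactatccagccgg
Prtn3, chr10:79879417-79879716, plus strand: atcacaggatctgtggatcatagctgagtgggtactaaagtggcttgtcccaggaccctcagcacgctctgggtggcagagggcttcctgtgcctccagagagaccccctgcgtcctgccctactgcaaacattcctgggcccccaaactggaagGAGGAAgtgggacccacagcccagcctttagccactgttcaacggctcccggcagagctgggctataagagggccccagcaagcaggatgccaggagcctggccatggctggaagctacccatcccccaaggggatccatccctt
Ctsg, chr14:56102525-56102824, minus strand: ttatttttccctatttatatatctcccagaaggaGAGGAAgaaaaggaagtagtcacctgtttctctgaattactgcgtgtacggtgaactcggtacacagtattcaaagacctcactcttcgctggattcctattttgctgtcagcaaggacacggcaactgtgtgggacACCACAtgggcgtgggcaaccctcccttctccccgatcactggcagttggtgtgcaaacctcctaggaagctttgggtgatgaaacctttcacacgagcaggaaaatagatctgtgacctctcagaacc
Ms4a3, chr19:11640802-11641101, minus strand: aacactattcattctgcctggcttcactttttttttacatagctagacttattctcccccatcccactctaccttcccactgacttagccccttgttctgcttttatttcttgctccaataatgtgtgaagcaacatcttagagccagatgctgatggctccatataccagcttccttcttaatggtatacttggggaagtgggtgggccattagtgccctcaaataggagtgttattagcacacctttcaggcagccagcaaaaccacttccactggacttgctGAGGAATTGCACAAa
GAGGAA was found in all 5 windows, and in 28.3% of the 32851 promoter windows of this length. It lies 85 bases before the start in Elane and 95 bases before it in Prtn3, the neighbouring genes of chromosome 10 (79886312 to 79888216 and 79879667 to 79883174). The MYB-type letters were in the Mpo and Elane windows (23.3% of all windows), the RUNX-type letters in that of Ctsg (16.8%) and the C/EBP-type letters only in that of Ms4a3 (10.8%), where they follow GAGGAA directly. A match describes the letters and is not a binding site.

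Of the 4 genes of the rule, Elane was detected in the fewest of the 278 cells. The summed UMIs of the 4 genes ranged from 10 to 205 with a median of 22. Prtn3 was seen in 98.6% (96.4 to 99.6) of the cells and Mpo in 98.2% (95.9 to 99.4), whereas Ctsg was seen in 57.9% (51.9 to 63.8) and Elane in only 43.5% (37.6 to 49.6). Elane had a median of 0 UMIs and a highest value of 59. In the Ter119-high cells, at their lower depth, Elane was seen in 1.85% of cells and Prtn3 in 5.25%, and in 1.38% and 4.26% of the 1527 cells left. Thinned to 2500 UMIs per cell, the shares were 30.9% of members and 1.25% of Ter119-high cells for Elane, and 92.8% and 2.62% for Prtn3. Pooled, the members held 1528 CPM (1479 to 1578) of Mpo, 1722 CPM (1670.0 to 1775) of Prtn3, 469 CPM (442 to 497) of Ctsg and 408 CPM (383 to 435) of Elane. In the CD11b-high cells Elane stood at 1906 CPM (1816 to 1998), 4.67-fold (4.31 to 5.05) above the members, while Mpo was 1.77-fold (1.68 to 1.86) above them.

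**Figure D1:**
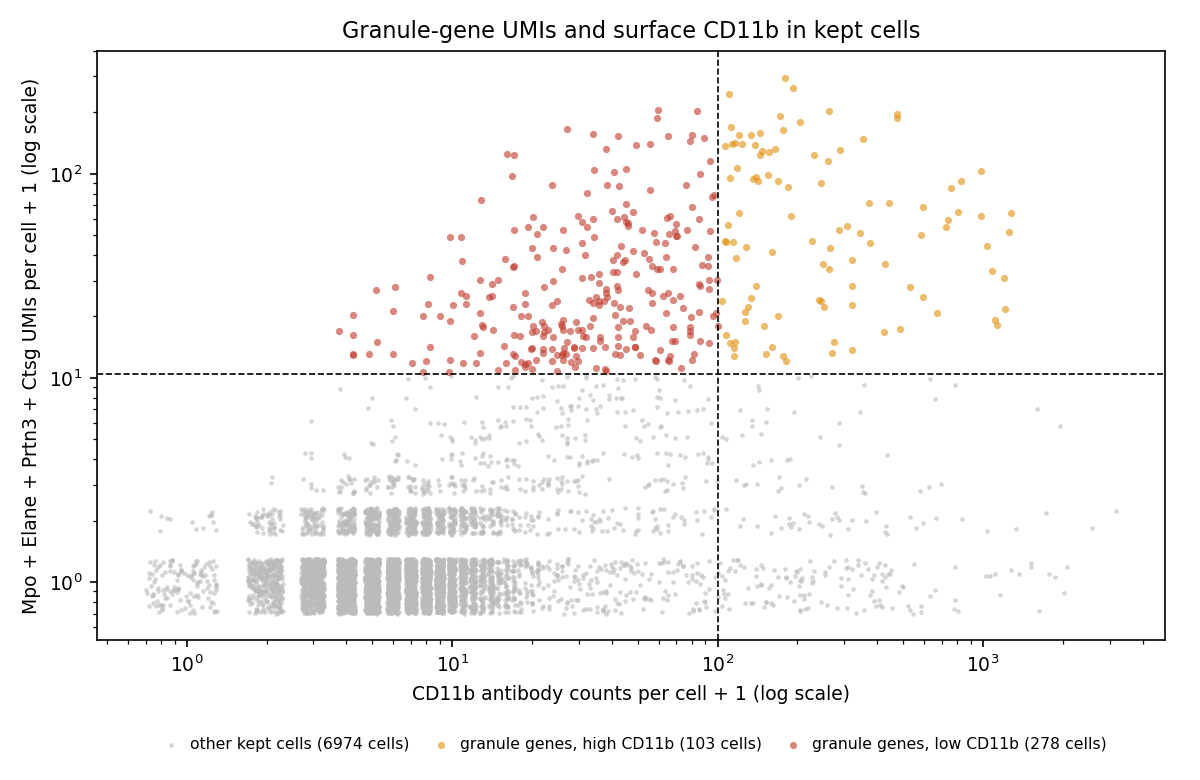
Each point is 1 kept cell, placed by its CD11b antibody counts (x axis, plus 1, log scale) and its summed UMIs of Mpo, Elane, Prtn3 and Ctsg (y axis, plus 1, log scale, points spread slightly at random). The dashed lines are the limits of 100 CD11b counts and 10 UMIs: the 278 members fill the upper left, the 103 CD11b-high cells the upper right, and no gap in either measure separates them from their neighbours.

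The limits cut through continuous ranges. The 31 cells just inside the sum, with 10 or 11 UMIs, held 18.4 CPM of Elane, 96.4 CPM of Ms4a3 and 349 CPM of Cd34, and the 28 cells just outside it, with 8 or 9 UMIs, held 14.6, 63.4 and 425 CPM. The 24 members with 80 to 99 CD11b counts held 599.8 CPM of Elane and 106 CPM of Cebpe, against 1550.2 and 296 CPM in the 20 cells with 100 to 119 counts.

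On the surface the members resembled cKit-high progenitors in cKit and lay between these and the CD11b-high cells in CD44. The median cKit count was 310 in the members (quartiles 206.5 to 487), 352 in the cKit-high progenitors, 166 in the CD11b-high cells and 16 in the Ter119-high cells, and 249 of the 278 members had 100 or more. CD44, a hyaluronan receptor, had medians of 347.5, 209, 599 and 58 in the same order. The counts are raw, and the summed counts of all antibodies had medians of 875.5, 728, 1355 and 1048 in these groups. The part of such general differences in the CD44 order was not tested. CD71, the transferrin receptor, was low, with a median of 29 in the members, 60 in the cKit-high progenitors, 73 in the CD11b-high cells and 682 in the Ter119-high cells. Ter119 had a median of 6 in the members, and 258 of them had fewer than 25 counts. The exceptions were 28 members with 25 or more Ter119 counts or 200 or more CD71 counts. Scrublet called 15 of the 278 members (5.40%) doublets, against 1.36% of all other kept cells. The unspecific IgG tag was counted in 12 members (4.32%), in 2.46% of the cKit-high progenitors and in 12.6% of the CD11b-high cells.

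The messages of the same surface proteins were compared with the antibodies. Kit stood at 77.01 CPM (66.3 to 88.9) in the members, 69.2 CPM (63.7 to 75.1) in the cKit-high progenitors and 38.2 CPM (26.4 to 53.4) in the CD11b-high cells, so the first pair overlapped and the third was lower, as for the antibody. Cd44 stood at 89.9, 55.6 and 110.0 CPM, in the order of its antibody, and Tfrc, which encodes CD71, was lowest in the members, at 44.5, 82.03 and 59.5 CPM. The members were lowest for the CD71 antibody too, but the other pair had the reverse order. For CD41 the orders also differed: its antibody had medians of 15 in the members, 8 in the cKit-high progenitors and 38 in the CD11b-high cells, but its message Itga2b stood at 6.24 CPM (3.49 to 10.3), 31.6 CPM (27.9 to 35.6) and 6.74 CPM (2.47 to 14.7). In these groups the CD41 antibody had the same order as the summed counts of all antibodies. The Ly6G/6C antibody was near the level of the other groups in the members, with a median of 3 against 5 in the CD11b-high cells and 4 in the Ter119-high cells.

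**Figure D2:**
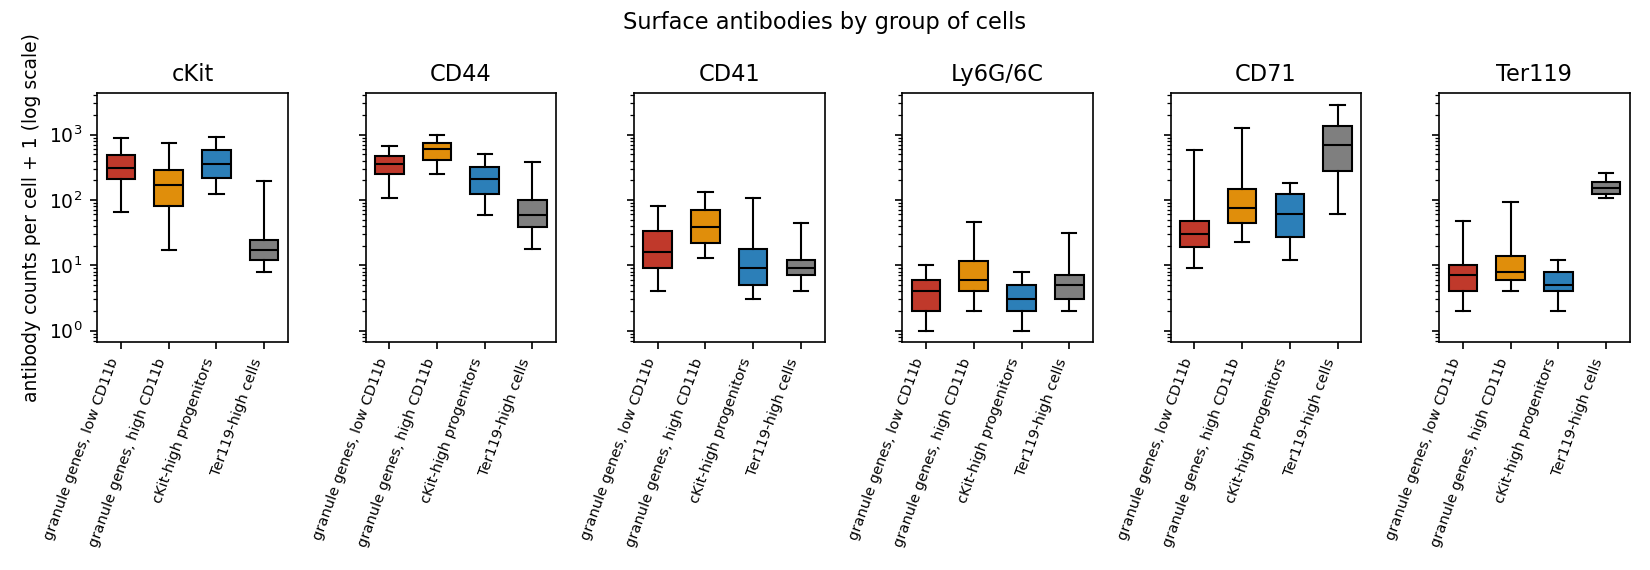
Antibody counts per cell (y axis, plus 1, log scale) for 6 antibodies in the 278 members, 103 CD11b-high cells, 1055 cKit-high progenitors and 1677 Ter119-high cells; boxes span the quartiles, lines mark medians and whiskers the 5th to 95th percentiles. The members' cKit box (median 310) lies beside that of the cKit-high progenitors (352), and their CD44 box (347.5) between 209 and 599; low CD71, low Ter119 and high cKit define the cKit-high progenitors, so their boxes for these antibodies are set by the choice.

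The cells were then checked against markers of their label. Ms4a3, the marker that the rule did not use, stood at 271 CPM (250.2 to 292) in the members, 6.41 CPM (4.82 to 8.36) in the cKit-high progenitors and 7.94 CPM (6.19 to 10.03) in the Ter119-high cells (4.32 CPM in the 1527 left), and 41.7% (35.9 to 47.8) of members had a UMI of it. After each cell was thinned to 2500 UMIs the share was 32.4% in the members, 60.2% in the CD11b-high cells, 1.61% in the cKit-high progenitors and 1.37% in the Ter119-high cells. The labels name the sample erythroid progenitors, and all 13 measured genes of the erythroid list were lower than in the rest of the kept cells by at least a factor of 2 (median log2 ratio -3.03). Of all genes, 3.8% were lower in that contrast and 1.89% against the cKit-high progenitors. Against the cKit-high progenitors 4 of the 13 were lower and 9 within the limit, with a median log2 ratio of 0.19, and the list summed to 15120.2 CPM in the members and 9874 CPM in those cells. The 4 were Gata1, the erythroid master regulator, at 27.9 CPM (21.6 to 35.4) against 155 CPM (147 to 164), Klf1 at 52.03 against 291 CPM, the erythropoietin receptor Epor at 10.8 against 85.1 CPM, and Car2 at 373 against 965 CPM. Globin messages made up 1.46% of the members' UMIs, 0.827% of those of the cKit-high progenitors and 45.0% of those of the Ter119-high cells.

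Genes were compared by the log2 ratio of pooled CPM plus 10, for genes with at least 50 UMIs in both groups together, and a gene was counted as higher or lower at a log2 ratio of 1 or more in size. Against all other kept cells, 608 of 11276 genes (5.39%) were higher in the members and 429 (3.8%) lower, or 513 and 535 with the globin genes left out. Against the CD11b-high cells 53 of 6244 genes (0.849%) were higher and 150 (2.4%) lower, but 81 were higher and 81 lower with cells thinned to 2500 UMIs, and 297 higher and 195 lower with a CD11b limit of 200. Against the cKit-high progenitors 283 of 8884 genes (3.19%) were higher and 168 (1.89%) lower, or 175 and 202 with thinned cells. The rule took part in forming all 3 contrasts. A gene with few UMIs in a group could also reach the minimum only through the other group, which fixed its direction. These counts and those of the gene lists below are therefore given as they stand, and nothing is read from their shares.

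Of 15 measured genes of azurophil granule cargo and packaging, 11 were higher in the members than in the cKit-high progenitors, 4 were within the limit and none was lower (median log2 ratio 1.59, against -0.06 over all genes). The shares of all genes were 3.19% higher and 1.89% lower. Srgn, the proteoglycan that binds granule proteases, stood at 956 CPM (917 to 996) against 333 CPM (321 to 346). Serpinb1a, an inhibitor of these proteases inside the cell, stood at 259 CPM (239 to 280.1) against 22.6 CPM (19.5 to 26.002), 11.5-fold (9.74 to 13.6) higher. Ctsc, which removes the propeptide of the proteases, stood at 187 against 54.97 CPM, and the granule membrane protein Cd63 at 306 against 123 CPM. Lyz2, the lysozyme of myeloid cells, stood at 349 against 61.7 CPM, but at 169 CPM in the Ter119-high cells and 23.5 CPM in the 1527 of them left. Vamp8, a fusion protein of many secretory cells, was at 372 and 493 CPM.

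Against the CD11b-high cells, 7 of the 15 genes were lower in the members, 8 were within the limit and none was higher (median log2 ratio -0.57, against 0.08 over all genes). The shares of all genes were 2.4% lower and 0.849% higher. Lyz2 was 6.999-fold (6.46 to 7.59) higher in the CD11b-high cells, Ctsc 3.59-fold (3.17 to 4.06), Serpinb1a 2.21-fold (1.96 to 2.49) and the membrane protein gene Ms4a3 3.44-fold (3.097 to 3.81). Srgn differed less, at 1.49-fold (1.39 to 1.59).

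The summed level of specific granule genes, which serve granules that form later, was lower in the members than in the CD11b-high cells. It was higher than in the cKit-high progenitors. All 6 measured specific granule genes were lower in the members than in the CD11b-high cells (median log2 ratio -4.26), beside 2.4% of all genes. Genes such as Ngp and Lcn2 reached the minimum of UMIs only through the CD11b-high cells, so nothing is read from that count. The summed level of all 15 listed genes, without that minimum, was 195 against 4925 CPM. In the cKit-high progenitors the sum was 17.9 CPM, and 2 of 3 measured genes, Camp and Hp, were higher in the members, beside 3.19% of all genes. Hp reached the minimum of UMIs there only with the help of the members, so nothing is read from that count. The call for Camp rested largely on 1 cell. In the members 1 cell held 25.9% of the summed UMIs, and the sum was 145 CPM without it. Camp, the cathelicidin precursor, stood at 49.1 CPM (40.7 to 58.8) against 2614 CPM (2509 to 2723), and 1 member held 79.7% of its 118 UMIs, so that the level without that cell was 10.01 CPM, below the 16.8 CPM of the 1527 Ter119-high cells left. Ngp stood at 4.995 against 766 CPM and Lcn2 at 0.833 against 168 CPM. Both levels were below those of the Ter119-high cells (74.4 and 9.18 CPM, or 13.9 and 1.22 CPM in the 1527 left) and are read as background. Hp, haptoglobin, was the exception: 107 CPM (94.3 to 121) in the members was 5.17-fold (4.44 to 6.04) below the CD11b-high cells but 53.01-fold (32.5 to 92.4) above the cKit-high progenitors, with 8.28 CPM in the Ter119-high cells and 4.46 CPM in the 1527 left.

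Of the list of late neutrophil genes, 4 of 6 measured were higher than in the cKit-high progenitors and none lower, beside 3.19% and 1.89% of all genes. Against the CD11b-high cells 3 of 6 were lower and none higher, beside 2.4% and 0.849% of all genes. S100a8 and S100a9, which form calprotectin, stood at 109.9 CPM (97.03 to 124) and 75.3 CPM (64.8 to 87.2) in the members, or 83.04 and 42.1 CPM without the cell that held most UMIs of each. These levels were below the 128 and 135 CPM of all Ter119-high cells and far below the 5319 and 4888 CPM of the CD11b-high cells. In the 1527 Ter119-high cells left, S100a8 and S100a9 stood at 40.3 and 39.99 CPM. S100a9 in the members, without the cell that held most, was near that background. No UMI of Ly6g was found in the members, which allows up to 1.25 CPM, and none of Mmp9 or Fpr1. The interval of the G-CSF receptor Csf3r overlapped that of the CD11b-high cells, at 25.4 CPM (19.4 to 32.6) against 25.8 CPM (16.4 to 38.8), with 5.698 CPM in the cKit-high progenitors. Outside the lists, the genes with the lowest ratio to the CD11b-high cells were stefin A genes, which encode inhibitors of cysteine proteases: Stfa1 stood at 182 CPM (165 to 199.8) against 4028 CPM (3897 to 4162). The stefin A genes are close copies of each other, so the split of reads among them is uncertain.

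**Figure D3:**
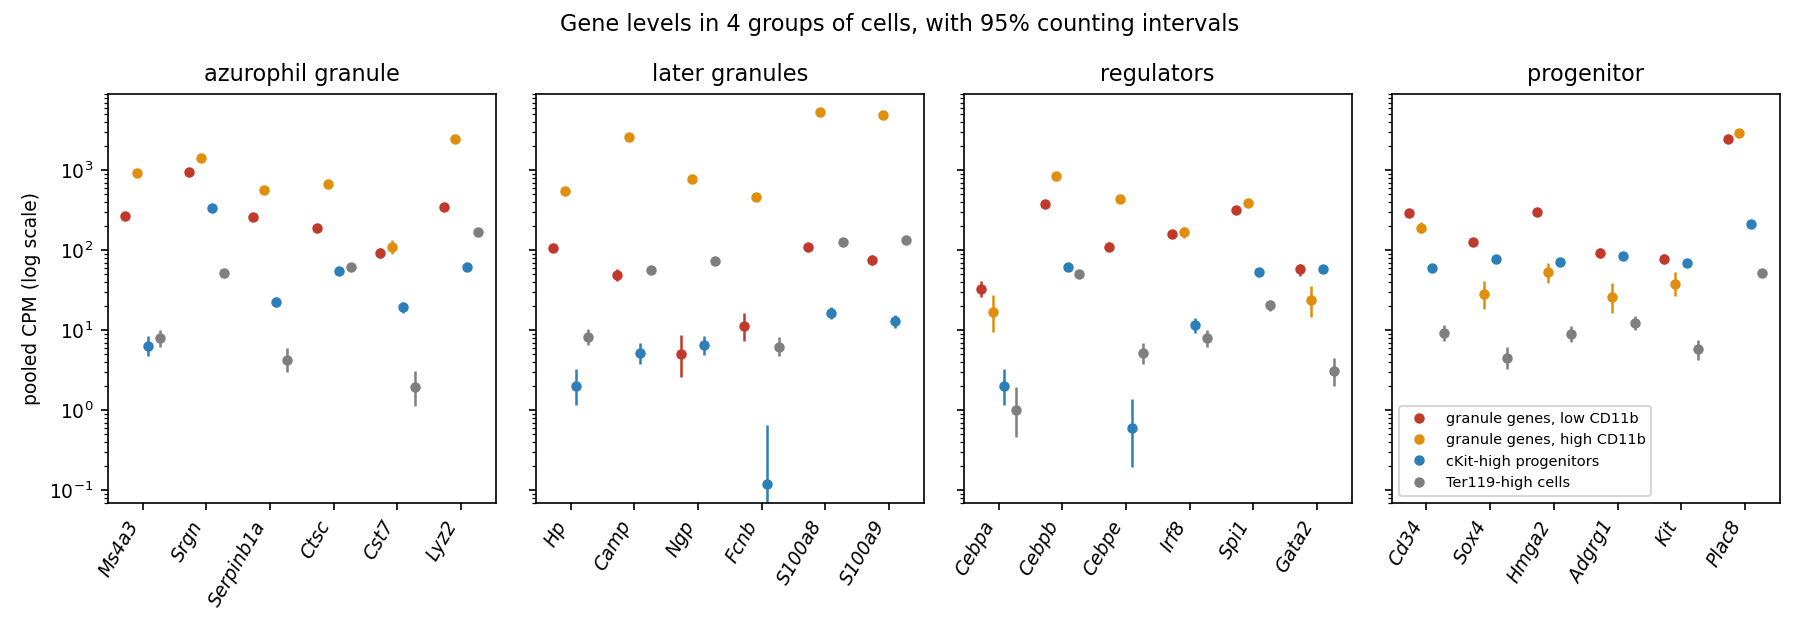
Pooled CPM (y axis, log scale) of 24 genes in the 4 groups of cells; points are levels and vertical lines 95% counting intervals, of which that of Fcnb in the cKit-high progenitors (1 UMI) runs below the axis. The membrane protein gene Ms4a3, drawn with the azurophil genes, is at 271 CPM in the members and 929.8 in the CD11b-high cells. Later granule genes such as Camp separate those groups further (49.1 and 2614 CPM), and Hmga2 and Sox4 are highest in the members.

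Of 21 measured transcription factors of the list, 7 were higher and 4 lower than in the cKit-high progenitors, beside 3.19% and 1.89% of all genes. Against the CD11b-high cells 1 was higher and 5 lower, beside 0.849% and 2.4% of all genes. Spi1, which encodes PU.1, stood at 317 CPM (295 to 341) in the members, 389.7 CPM (349.7 to 433) in the CD11b-high cells and 53.5 CPM (48.7 to 58.7) in the cKit-high progenitors. Cebpa, needed for the granulocyte and monocyte progenitor stage, stood at 32.9 CPM (26.03 to 40.98), 16.8 CPM (9.43 to 27.8) and 2.02 CPM (1.18 to 3.23), with overlapping intervals in the members and the CD11b-high cells. Cebpb stood at 383, 839 and 62.6 CPM. Cebpe, the factor of specific granule formation, stood at 111 CPM (98.2 to 125), 440.2 CPM (398 to 486) and 0.594 CPM (0.193 to 1.39). Gfi1, a repressor in neutrophil commitment, was at 12.5 CPM (8.43 to 17.8), 38.2 CPM (26.4 to 53.4) and 2.85 CPM (1.83 to 4.24). Cebpa and Cebpe reached the minimum of UMIs against the cKit-high progenitors only with the help of the members, so nothing is read from that count of higher factors.

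Irf8, a factor of monocytes and dendritic cells, had overlapping intervals in the members and the CD11b-high cells, at 160.3 CPM (145 to 177) and 168 CPM (143 to 198), and was 13.9-fold (11.1 to 17.6) above the cKit-high progenitors. All 7 measured genes of the monocyte list were higher than in the cKit-high progenitors, beside 3.19% of all genes. The list was low in those progenitors, so reaching the minimum of UMIs depended largely on the members, and nothing is read from that count. Against the CD11b-high cells 2 of 8 were lower and none higher, beside 2.4% and 0.849% of all genes. All 15 listed genes, without that minimum, summed to 491 CPM in the members, 984 CPM in the CD11b-high cells and 40.7 CPM in the cKit-high progenitors. Runx1 stood at 114, 64.01 and 51.5 CPM in the same order of groups, and Myb at 191, 140.4 and 160.3 CPM. Gata2, a factor of early progenitors and of mast cells and basophils, was at 57.4 CPM (48.3 to 67.9), 23.6 CPM (14.6 to 36.05) and 57.9 CPM (52.9 to 63.3). The 4 factors lower than in the cKit-high progenitors were Gfi1b, Tal1 and Gata1, which serve red cells and platelets, and Mycn, with log2 ratios of -1.44, -1.36, -2.13 and -1.12. The Mycn ratio changed sign with a sum of at least 5 UMIs (log2 0.059). Nfe2 and Lmo2, which serve the same lineages, did not pass the limit, at 102 against 75.6 CPM and 301 against 429 CPM.

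Against the CD11b-high cells, 2 of 9 measured genes of the stem and progenitor list were higher and none lower, and of 7 fetal genes 1, Hmga2, was higher and 1, H19, lower, beside 0.849% and 2.4% of all genes. The H19 ratio changed sign without called doublets, with cells of low Ter119 alone and with a CD11b limit of 200 (log2 0.012, 0.086 and 0.94). Hmga2, a chromatin protein of fetal stem and progenitor cells, stood at 298 CPM (276 to 320.3) in the members, 52.8 CPM (38.8 to 70.2) in the CD11b-high cells and 71.9 CPM (66.3 to 77.9) in the cKit-high progenitors. Sox4 stood at 127 CPM (113 to 142), 28.1 CPM (18.2 to 41.4) and 78.6 CPM (72.7 to 84.8). Adgrg1, an adhesion receptor of stem and progenitor cells, was 3.59-fold (2.34 to 5.79) above the CD11b-high cells and level with the cKit-high progenitors (92.8 and 85.6 CPM). Cd34, the sialomucin of progenitors, stood at 295 CPM (274 to 318), 192 CPM (164 to 223) and 60.4 CPM (55.3 to 65.9), and Plac8 at 2472, 2902 and 213 CPM. Outside the lists, Tspan13, Ikzf2, Tespa1 and the chemokine Ccl9 led the genes higher than in the CD11b-high cells, and Ccl9 stood at 180.2 CPM (164 to 198), 52.8 CPM (38.8 to 70.2) and 16.9 CPM (14.2 to 19.9).

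Of 14 measured cytokine receptor genes 8 were higher than in the cKit-high progenitors, 5 within the limit and 1, Epor, lower, beside 3.19% of all genes higher and 1.89% lower. None of 12 passed the limit against the CD11b-high cells, beside 0.849% of all genes higher and 2.4% lower. The common beta chain Csf2rb stood at 48.3 against 7.72 CPM, the M-CSF receptor Csf1r at 37.5 against 3.92 CPM, and Cxcr4, the receptor that retains myeloid cells in their niche, at 24.98 against 1.899 CPM. Csf1r and Cxcr4 reached the minimum of UMIs only with the help of the members, so nothing is read from the count against the cKit-high progenitors. The signalling adapters Tyrobp and Fcer1g stood at 405 CPM (380.4 to 432) and 312 CPM (290.2 to 335), against 49.9 and 67.3 CPM in the cKit-high progenitors and 823 and 729.9 CPM in the CD11b-high cells. Cybb, the membrane subunit of the NADPH oxidase, which supplies the oxidant that myeloperoxidase uses, stood at 24.6 CPM (18.7 to 31.7) against 111 CPM (90.4 to 135) in the CD11b-high cells. Gsr, glutathione reductase, was at 356 CPM in the members, 913 CPM in the CD11b-high cells and 142 CPM in the cKit-high progenitors.

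Of 21 measured genes of protein folding and secretion in the endoplasmic reticulum, 5 were higher than in the cKit-high progenitors, beside 3.19% of all genes. None of 20 passed the limit against the CD11b-high cells, which 0.849% of all genes passed upward and 2.4% downward, so nothing is read from that count. Calr, a chaperone of myeloperoxidase folding, stood at 1603 CPM (1553 to 1655), 1251 CPM (1179 to 1327) and 534 CPM (519 to 550.2), and Hspa5 at 477, 439 and 213 CPM. Myeloperoxidase also needs heme. Alas1, the housekeeping form of the first enzyme of heme synthesis, stood at 74.5 CPM (63.99 to 86.3) against 10.4 CPM (8.38 to 12.9) in the cKit-high progenitors and 194 CPM (166 to 225) in the CD11b-high cells. It was the 1 gene of 9 in the list that was higher than in all other kept cells, and the other 8, which include the erythroid form Alas2, were lower. In that contrast 5.39% of all genes were higher and 3.8% lower.

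The cell cycle was looked up in lists of replication and mitosis. None of 16 genes of DNA replication and none of 16 genes of mitosis passed the limit against the cKit-high progenitors or the CD11b-high cells, and with shares of all genes between 0.849% and 3.19% in each direction nothing is read from this. Mcm6, a subunit of the replicative helicase, stood at 201 CPM (183 to 219), 194 CPM (166 to 225) and 194 CPM (185 to 204), and Top2a at 303, 325 and 267 CPM.

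Markers of other cell types were looked up beside these results. The 11 hepatocyte genes summed to 305 CPM in the members, with Afp highest (81.2 CPM), and 86.0% of members had at least 1 of their UMIs. In the CD11b-high cells they summed to 2715 CPM, but 1 cell, with 175 CD11b counts, held 86.3% of those UMIs, and the sum without it was 379 CPM. The 12 macrophage genes summed to 33.7 CPM in the members, with Cd5l and Mrc1 at 0 UMIs (up to 1.25 CPM). The 11 megakaryocyte genes summed to 137 CPM, with Cd9 highest and Pf4 at 17.9 CPM against 537 CPM in the cKit-high progenitors. In those progenitors 3 cells held 37.3% of the UMIs of the list. The part of such cells in the results was not tested.

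The members were then ordered by cKit. The cells were divided into 3 equal groups by cKit counts, of 13 to 251, 251 to 443 and 445 to 1245 counts. From the lowest to the highest of these groups, Ms4a3 went from 359.9 CPM (314 to 411) over 347 to 148 CPM (125 to 175), and Cebpe from 167 CPM (136 to 203) over 138 to 52.96 CPM (39.4 to 69.6). S100a8 went from 269 CPM (229 to 314) to 33.2 CPM (22.7 to 46.9), and from 163 CPM when the cell with most of its UMIs was left out of the lowest group. Of 11 genes of the stem and progenitor list with at least 20 UMIs, 4 were higher in the highest than in the lowest group by a log2 ratio of 1 or more and 2 lower, against 12 and 48 of all 277 genes looked at. These 277 were the listed and named genes with at least 20 UMIs in the members. The share over all genes was not computed, so nothing is read from these counts. Kit stood at 36.3 CPM (22.8 to 54.99) in the lowest and 109 CPM (89.2 to 132) in the highest group, Sox4 at 74.3 CPM (54.2 to 99.4) and 207 CPM (179 to 237), Hmga2 at 178 CPM (146 to 215) and 387 CPM (349 to 429), and Adgrg1 at 57.8 and 134 CPM. Mcm6 and Cd44 had overlapping intervals in all 3 groups. The median sum of the 4 genes of the rule was 18, 29 and 21 UMIs and had no such order. The groups also differed in depth, with medians of 5701, 8914 and 9629 UMIs per cell, so the 10 UMIs of the rule are a larger share of a cell in the lowest group, and the part of depth was not tested.

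The members were also ordered by CD11b, an antibody of the rule, still below its limit. Of 9 genes of the monocyte list with at least 20 UMIs, 7 were higher in the highest than in the lowest group by that ratio and none lower. Of the 277 listed and named genes 25 were higher and 4 lower. The share over all genes was not computed, so nothing is read from this count. In 3 equal groups of 3 to 23, 23 to 44 and 44 to 99 CD11b counts, Irf8 stood at 102 CPM (79.9 to 129), 154 and 209.7 CPM (181 to 242). F13a1, a coagulation factor subunit of monocytes, stood at 39.5 CPM (26.04 to 57.5), 88.5 and 123 CPM (101 to 148), and Csf1r at 16.1 CPM (8.04 to 28.8), 39.4 and 51.9 CPM (38.1 to 68.996). Gata2 and Cpa3, the carboxypeptidase of mast cells, had the opposite order, at 111 CPM (87.6 to 139) and 29.8 CPM (19.6 to 43.4), and 133 CPM (107 to 164) and 56.3 CPM (41.9 to 74.02), the last being 30.03 CPM without the cell with most of its UMIs. Kit and Hmga2 had overlapping intervals in the outer CD11b groups, and the median cKit count was 284, 404 and 299.5. The median depth of these groups was 7097, 8710 and 9219 UMIs.

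**Figure D4:**
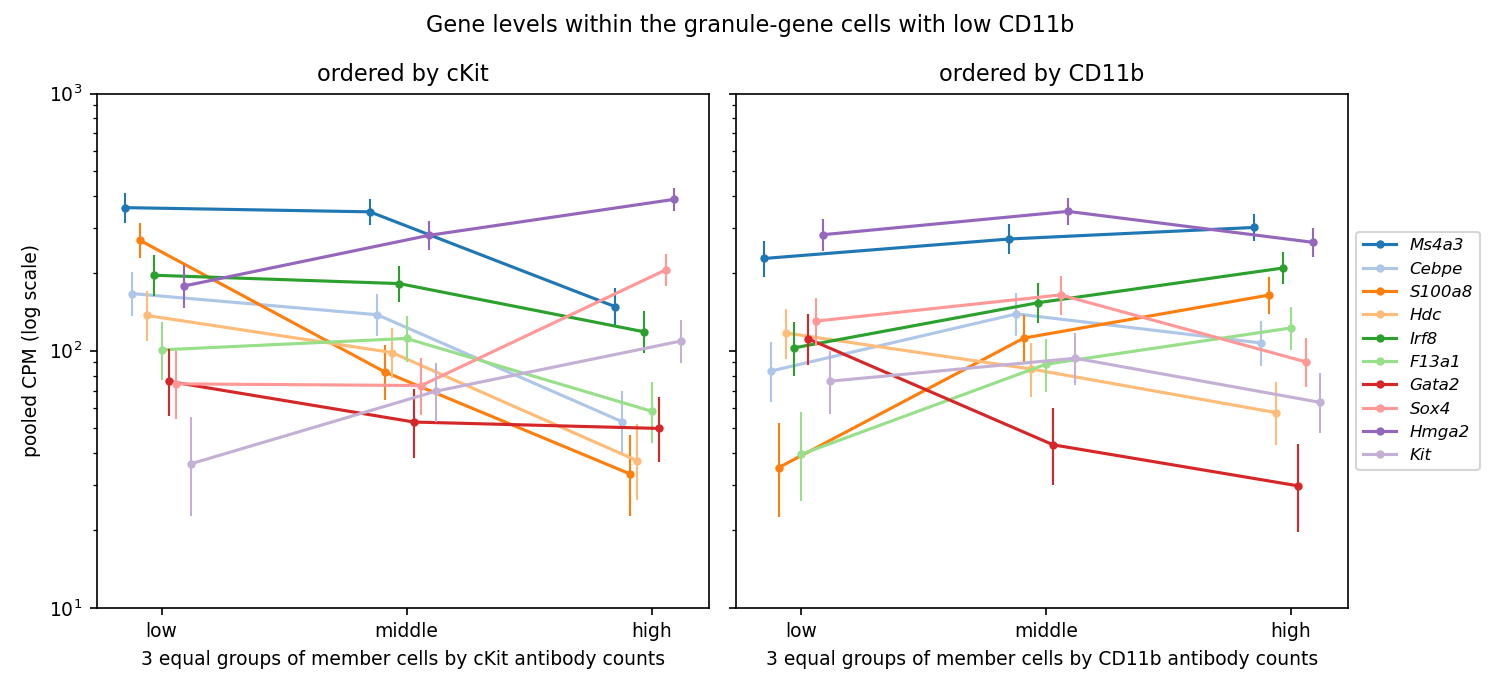
Pooled CPM (y axis, log scale) of 10 genes in 3 equal groups of the 278 members, ordered by cKit antibody counts on the left and by CD11b counts on the right; vertical lines are 95% counting intervals. On the left Ms4a3 goes from 359.9 to 148 CPM while Kit goes from 36.3 to 109 CPM; on the right Gata2 goes from 111 to 29.8 CPM while Irf8 goes from 102 to 209.7 CPM.

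The shares of members with a UMI of Cebpe and of Irf8 were compared. This pair was chosen after the values were seen. A UMI of Irf8 was present in 23.3% (14.8 to 33.6) of the 86 members with a UMI of Cebpe and in 56.2% (48.9 to 63.4) of the 192 members without one, at median depths of 8158 and 8174 UMIs per cell. For scale, the Ter119-high cells had a UMI of Irf8 in 2.39% and of Cebpe in 1.25% of cells, or 0.524% and 0.786% of the 1527 left. Of the 278 members, 66 had Cebpe alone, 108 Irf8 alone, 20 both and 84 neither, and a cell without a UMI of a gene may still express it.

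Ms4a3 was higher in the members with Cebpe alone than in those with Irf8 alone, at 763 CPM (690.2 to 841) against 46.3 CPM (34.02 to 61.6), and 1 cell held 27 of its 47 UMIs in the latter, which stood at 19.9 CPM without it. The cells with both stood at 532 CPM (439 to 639.7). Among the genes that chose the cells, whose levels are described only, Elane stood at 979.9 CPM with Cebpe alone and 127 CPM with Irf8 alone (69.6 CPM without the cell with most of its UMIs), and Prtn3 at 2375 and 1496 CPM. The monocyte genes Csf1r, Ly86 and Ms4a6c had the reverse order: Csf1r stood at 11.4 CPM (4.19 to 24.8) and 63.1 CPM (48.6 to 80.5), Ly86 at 1.903 CPM (0.0482 to 10.6) and 52.2 CPM (39.1 to 68.3), and Ms4a6c at 20.9 CPM (10.4 to 37.5) and 116 CPM (96.2 to 139). No count over the whole monocyte list is given here. Fcer1g, which is used by all myeloid lineages, had overlapping intervals in them, at 318 CPM (271 to 369.8) and 275 CPM (244 to 309). The median CD11b count was 38 with Cebpe alone, 37 with Irf8 alone and 22.5 with neither.

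**Figure D5:**
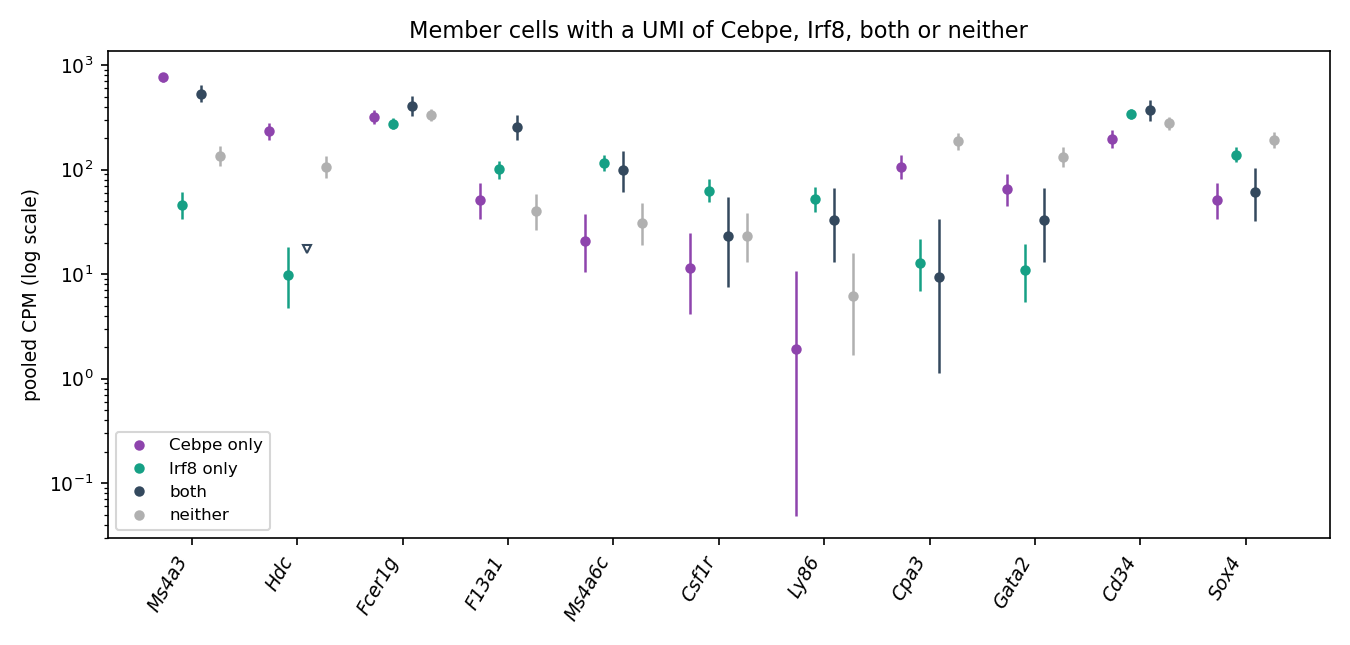
Pooled CPM (y axis, log scale) of 11 genes in members with a UMI of Cebpe alone (66 cells), Irf8 alone (108), both (20) or neither (84); lines are 95% counting intervals and an open triangle marks the upper bound of a gene with no UMI. Ms4a3 is at 763 CPM with Cebpe alone and 46.3 CPM with Irf8 alone, Csf1r at 11.4 and 63.1 CPM, and Cpa3 and Gata2 are highest with neither.

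Some members carried genes of mast cells and basophils. Of 10 listed, 5 were measured, and 2 of these were higher than in the cKit-high progenitors, beside 3.19% of all genes. The CD11b-high cells carried them too: the list summed to 246 CPM in the members and 221 CPM in those cells. Without the cell that held most of its UMIs in each group, the sums were 227 and 119 CPM. A UMI of the list was found in 48.9% of members and 32.0% of CD11b-high cells. Cpa3 stood at 79.9 CPM (69.02 to 92.1) and Hdc, the enzyme that makes histamine, at 83.7 CPM (72.5 to 96.1), against 15.1 and 5.22 CPM in the cKit-high progenitors and under 1 CPM (0.68 and 0.794) in the Ter119-high cells. Hdc reached the minimum of UMIs against the cKit-high progenitors only with the help of the members, so nothing is read from that count. Of the 82 members with a UMI of Hdc, 51.2% (39.9 to 62.4) had one of Cpa3, against 11.7% (7.59 to 17.1) of the 196 others. Gata2 was seen in 44.6% (32.3 to 57.5) of the 65 members with Cpa3 and in 15.0% (10.5 to 20.5) of the 213 without, whereas Irf8 was seen in 12.3% (5.47 to 22.8) and 56.3% (49.4 to 63.1). Median depths were 8491 and 8156 UMIs. Hdc was also seen with Cebpe, which was found in 58.5% (47.1 to 69.3) of members with Hdc and in 19.4% (14.1 to 25.6) of the others. The IgE receptor chain Ms4a2 was at 14.99 CPM (10.5 to 20.7), with 33.3% of its UMIs in 1 cell. The choice of these pairs was made after the values were seen.

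Clustering of all kept cells without the 4 genes of the rule placed 29 members apart from the others. Of 16 clusters, 1 with 711 cells held 249 members together with 99 of the CD11b-high cells, and 1 with 369 cells, led by Ifitm1, Gata2 and Cpa3, held the 29. These clusters are not named as cell types. The 29 members had nearly the same Mpo as the 249, at 1459.6 (1319 to 1611) and 1536 (1484 to 1590) CPM, but Elane at 25.9 (10.4 to 53.4) against 457 (429 to 486) CPM and Prtn3 at 407 (335 to 491) against 1888 (1831 to 1948) CPM. Their median cKit counts were 286 and 330, and their median CD11b counts 21 and 35.

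The 3 measured eosinophil genes were higher than in the cKit-high progenitors, beside 3.19% of all genes. Against the CD11b-high cells 1 was lower and none higher, beside 2.4% and 0.849% of all genes. The whole list had 48 UMIs in the cKit-high progenitors. A gene could reach the minimum of UMIs only with the help of the members, so nothing is read from the first count. The Prg3 ratio to the CD11b-high cells changed sign with a CD11b limit of 200 (log2 0.16). Among the 103 CD11b-high cells, 1 cell held 56.25% of the UMIs of the list. The 9 listed genes summed to 78.3 CPM in the members and 179.7 CPM in the CD11b-high cells, or 48.4 and 79.6 CPM without the cell that held most of their UMIs in each group. Siglecf, a lectin of eosinophils, had 59 UMIs in 45 members, while those of Prg2 and Prg3 came from few cells. Prg2, which encodes major basic protein, had 52 UMIs in 8 members, all of which had Cebpe, and 1 cell held 75% of them. Prg3 had 68 UMIs, 45.6% of them in 1 cell. Without the cell that held most, Prg2 stood at 5.43 CPM and Prg3 at 15.5 CPM. That level of Prg2 is too low to pass the limit against the cKit-high progenitors.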

How the data were processed

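The cDNA reads were mapped to mm10 with Cell Ranger by the authors, who deposited raw UMI counts for each gene in each cell and raw counts of each antibody tag. Seurat is also named in the submitters' processing notes. The matrix holds 27998 genes, 17768 of them with a UMI, and 58606632 UMIs, and the kept cells held 2510 to 30099 UMIs each (median 5870). The 2 libraries, 1 of them cDNA, give 1 sample per group.

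CPM, ratios and intervals (exact Poisson for levels, Clopper-Pearson for shares and ratios) were computed with scipy 1.17.1 and numpy 2.4.6. Pooled CPM was used in place of the mean over cells of CPM because counting intervals apply to it. Shares of Elane, Prtn3 and Ms4a3 were also compared after thinning to 2500 UMIs per cell; other shares are at full depth. A count of 0 allows up to 3 counts. PCR and animal differences are not covered. Scrublet, set to expect 6% doublets, was used to call doublets, which were kept. Clusters used scanpy 1.11.5 with 2000 variable genes, 16 principal components, 30 neighbours and a resolution of 0.8. On simulated counts, 200, 196 and 199 of 200 changed genes were recovered against the rest, the CD11b-high cells and the cKit-high progenitors (11256, 6133 and 8843 genes). How well the calls hold for the real counts, where few cells can hold most UMIs of a gene, was not tested.

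The members and gene lists were chosen with earlier results of these data known. Genes were named if in the rule, if an antibody target, if among the 4 highest of a list or a factor or receptor with 20 or more UMIs, or if among the 10 largest ratios either way. Ms4a3 was given as a marker. Adgrg1, Alas1, Alas2, Cd5l, Ctsc, Cybb, Fpr1, Gsr, H19, Hspa5, Klf1, Lcn2, Lin28b, Ly86, Mmp9, Mrc1, Ngp, Serpinb1a and Sox4, and Ahsg, Apoa1, Apoa2, Ppbp, Serpina1a and Ttr among the alternatives, were chosen after their values were seen. Cebpd and Ahsp were not analysed here, and Itgam was left out because its symbol is on 2 rows. Promoters and gene positions are from RefSeq (GRCm38.p6), where all 5 genes matched. Alternatives changed the limits, pseudocount, minimum UMIs, cell filter, doublets, Ter119 and CD71 cells, globin genes, averaging and depth. Leaving out members with high Ter119 or CD71, the cell with most UMIs of a gene, and Ter119-high cells with CD11b, the granule-gene sum or a doublet call was added after seeing the data.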

Additional observations from a re-analysis of the deposited data

Results flagged for a closer look

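The cells removed by the limits on genes and mitochondrial UMIs were not used in any comparison, and 14 of these 508 cells also met the granule-gene and CD11b limits. All 14 were above 9% mitochondrial UMIs, with a median of 9.96%, close to the limit. Their median depth was 3442 UMIs, their median cKit count 311 and their median sum of Mpo, Elane, Prtn3 and Ctsg 19 UMIs, against 310 and 22 in the members. The reason for their higher mitochondrial share was not tested.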

How the results depend on the processing

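No paired analysis was possible because there is 1 library and no replicate. Of 104 counts under alternatives, 83 were within 1.5 times the value reported. Of 1232 list medians under alternatives, 172 were counted as moved and 1 as reversed. With a sum of at least 20 UMIs there were 153 members, and 29 genes were higher than in the CD11b-high cells. That last count was 10 with a CD11b limit of 50 and 297 with a limit of 200. A pseudocount of 1 gave 1481 higher and 1294 lower genes against all other cells, 180 higher against the CD11b-high cells, and 504 higher and 493 lower against the cKit-high progenitors. A pseudocount of 50 gave 148 and 140, then 5 higher and 68 lower, and 73 and 31. With at least 200 UMIs the counts were 21 higher and 60 lower against the CD11b-high cells and 169 higher against the cKit-high progenitors. Thinned cells gave 81 higher and 81 lower against the CD11b-high cells and 175 higher against the cKit-high progenitors.

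With a CD11b limit of 200 the cell rich in hepatocyte messages joined the members, and log2 ratios to the CD11b-high cells changed sign for the hepatocyte list (median 1.198), Alb (1.53), Afp (1.10), Apoa1 (2.05), Apoa2 (1.198), Ttr (2.17), Trf (0.35), Serpina1a (0.79), Rbp4 (1.198), Ahsg (0.53), H19 (0.94), Apom (0.74), Serpina6 (1.07) and Meg3 (0.35), and those to the cKit-high progenitors for Afp (0.38), Ttr (1.26) and Rbp4 (0.32). Prg3 (0.16) also turned against the CD11b-high cells at that limit. A sum of at least 5 UMIs turned Ppbp (0.93) and Mycn (0.059) against the cKit-high progenitors. Against the CD11b-high cells, H19 turned without called doublets (0.012), and Trf (0.12), H19 (0.086) and Meg3 (0.20) turned with cells of low Ter119 alone. The cause of these shifts was not tested. Depth and the single library limit every level.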

Other observations

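Outside the lists, the largest log2 ratios of CPM plus 10 to the cKit-high progenitors were those of Emb, which encodes the transporter chaperone embigin, at 568 CPM (538 to 599) against 42.6 CPM (38.3 to 47.3), and of the annexin Anxa3, at 219 CPM (201 to 238) against 11.4 CPM (9.23 to 13.9). Clec5a, a lectin receptor that signals through Tyrobp, had a larger plain ratio than either, at 52.9 CPM (44.1 to 62.9) against 1.19 CPM (0.569 to 2.18) or 44.5-fold (23.4 to 95.1), and the lipid flippase Atp8b4 at 75.3 CPM (64.8 to 87.2) against 4.16 CPM (2.89 to 5.78). Of all genes tested 3.19% were higher. Of 14 measured adhesion and leukocyte surface genes 6 were higher and none lower, among them the tetraspanin Cd53 (184 against 15.1 CPM) and the actin regulator Coro1a (429.6 against 127 CPM). Of 11 innate sensing genes 7 were higher. Of 17 lysosomal hydrolase genes 2 were higher: Hexa (127 against 47.96 CPM) and Ctsz (223 against 98.9 CPM).

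Of 10 measured megakaryocyte genes 6 were lower than in the cKit-high progenitors and none higher, beside 1.89% of all genes lower. Pf4 of this list, the platelet chemokine, stood at 17.9 CPM (12.95 to 24.1) against 537 CPM (521 to 552), and outside the lists Car1, carbonic anhydrase of red cells, at 6.24 CPM (3.49 to 10.3) against 92.7 CPM (86.3 to 99.5). Cited4 stood at 60.8 CPM (51.3 to 71.5) against 355 CPM (343 to 368). Among the lymphoid genes Cd79b, a B cell receptor chain, was higher at 57.4 CPM (48.3 to 67.9) against 15.1 CPM (12.6 to 17.9), while 7 of the 13 listed lymphoid genes had no UMI in the members. None of 4 measured dendritic cell genes passed the limit, beside 3.19% of all genes higher and 1.89% lower, so nothing is read from that count. Of 8 fetal genes, Hmga2 and Arid3a were higher, beside 3.19% of all genes, and Lin28b stood at 21.2 CPM (15.8 to 27.9) against 23.98 CPM (20.8 to 27.5).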
